A study of Mus musculus with 6 samples.

Results

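The 8 genes described here, Cx3cr1, P2ry12, Tmem119, Siglech, Csf1r, Trem2, Tyrobp and Aif1, are the genes by which microglia are usually recognised. They were taken by name from the 18560 genes of the count table, not by a threshold on their values, and all 8 were present. They were followed over 51426 cells that carry one of 38 cluster names, of which 5 are immune clusters (MicroG1, MicroG2, MicroG3, macrophages and monocytes, together 5196 cells) and 33 are clusters of neurons, other glia, vascular cells and blood. Cluster names are those of the deposited annotation. By their cell numbers, several are exchanged against the names in the study's supplement, where MicroG1 and MicroG2, Mes1 and Mes2, OEC3 and OEC4, OEC2 and OEC5, and Astro2 and Astro3 each stand the other way round. Many neuron clusters are numbered differently as well. N15 (861 cells) and N8 (3335 cells) are thus not the supplement's neuron clusters of those numbers. Cells came from dissociated olfactory bulbs of C57BL/6NJ mice, 14 weeks old, and every droplet library held 3 pooled mice. Of the 3 conditions, each with 2 libraries, control mice had no manipulation, naris occlusion mice had odour input blocked for 6 weeks by a plug in one nostril, and trained mice had spent 6 weeks on an odour discrimination task for which water was withheld. The labels give the control mice as unmanipulated and the study's text calls them naive, although that text also names the open side of plugged mice as a control. The 6 libraries held 6705 to 10570 named cells and 11841160 to 17065083 unique molecular identifiers (UMIs, one per captured RNA molecule), and 473 to 866 of their cells were microglia. Trained replicate 1 had the fewest UMIs per cell (median 1028) and the highest mitochondrial share (median 14.4%), against 1344.5 to 1723.5 UMIs and 9.25% to 11.6% in the other libraries. Xist was at 0 to 5 UMIs in every replicate 1 library and at 20000 to 27904 UMIs in every replicate 2 library, so the replicate number goes with the sex of the pooled mice.

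Microglia are the resident macrophages of the brain parenchyma. They sense neurons and tissue through surface receptors and depend on signals through Csf1r, the receptor for the growth factors Csf1 and Il34. Cx3cr1 binds the neuronal chemokine Cx3cl1, P2ry12 is a receptor for ADP, Siglech is a lectin, and Tmem119 is a membrane protein used as a marker of parenchymal microglia. Trem2, a receptor for lipids and lipoproteins such as Apoe, signals through Tyrobp, an adaptor with an immunoreceptor tyrosine-based motif that many myeloid receptors share. Aif1, better known as Iba1, is a calcium-binding protein of the actin cytoskeleton that is stained to show microglia and macrophages alike.

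The names of the immune clusters were checked on markers other than the 8 genes. Summed over 4 microglia markers (Gpr34, Fcrls, P2ry13 and Olfml3), MicroG1 reached 4742 CPM (UMIs of a gene scaled to a fixed total per cluster and library), MicroG2 5709 CPM and MicroG3 2105 CPM, against 1558.5 CPM in macrophages and 728 CPM in monocytes. Summed over 5 macrophage markers, macrophages reached 8508 CPM against 1223 CPM in monocytes and 16.9 CPM in the pooled microglia. Summed over 5 monocyte markers, monocytes reached 23597 CPM, against 6744 CPM in macrophages and 1033 CPM in microglia, so macrophages and monocytes each held some of the other's markers. Fcrls was the microglia marker that macrophages held most of, at 1234 CPM against 899.7 CPM in MicroG3. The border macrophage genes Mrc1 (1429 CPM in macrophages), Pf4 (5184 CPM) and Lyve1 (217 CPM) were at 13.7 CPM or less in MicroG1, MicroG2 and MicroG3, whereas Maf (515 CPM in MicroG2) and Stab1 (134 CPM) of the same list were found in microglia as well. The antigen presentation genes Cd74 (12797 CPM) and H2-Aa (3807 CPM) were highest in monocytes.

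The table of RefSeq start-site windows used here, on the build of the counts (GRCm38.p6), gave a window for 5 of the 8 genes. The 6 letters GAGGAA, 1 spelling found in sites read by the myeloid factor Spi1 (PU.1), were searched on both strands in the 250 bases before each start. They occurred before 2 of the 5 genes, Trem2 and Aif1, and before 23.1% of the 27025 genes in the table. The windows of Trem2, with its match 40 bases before the start in capitals, and of P2ry12 and Cx3cr1 are shown. P2ry12 and Cx3cr1 have no match to the 6 letters, though both windows hold the shorter GGAA. They are the members that differed most between MicroG3 and MicroG1, and Trem2 is 1 of the 2 with a match. A match is a string of letters, not a bound site. The Trem2 window is chr17:48346151-48346400 on the + strand, that of P2ry12 is chr3:59262986-59263235 on the - strand and that of Cx3cr1 is chr9:120068297-120068546 on the - strand, each written 5′ to 3′ along the gene.
Trem2: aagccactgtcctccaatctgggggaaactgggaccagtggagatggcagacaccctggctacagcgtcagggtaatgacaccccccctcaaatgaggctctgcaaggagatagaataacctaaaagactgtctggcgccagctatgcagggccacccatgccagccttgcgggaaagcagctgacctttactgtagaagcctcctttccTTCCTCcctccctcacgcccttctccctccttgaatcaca
P2ry12: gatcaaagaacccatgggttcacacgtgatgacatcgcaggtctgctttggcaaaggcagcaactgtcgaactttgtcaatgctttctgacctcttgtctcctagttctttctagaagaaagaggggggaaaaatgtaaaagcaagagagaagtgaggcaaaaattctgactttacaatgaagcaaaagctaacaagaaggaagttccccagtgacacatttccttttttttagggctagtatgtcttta
Cx3cr1: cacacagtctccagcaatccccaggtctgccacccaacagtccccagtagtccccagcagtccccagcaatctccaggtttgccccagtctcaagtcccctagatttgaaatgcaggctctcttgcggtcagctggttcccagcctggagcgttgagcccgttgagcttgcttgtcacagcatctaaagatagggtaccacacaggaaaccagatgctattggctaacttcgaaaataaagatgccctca

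All 8 genes had their highest level in a microglia cluster, and each was higher in every microglia cluster than in any of the 33 nonimmune clusters, in 6 of 6 libraries. Levels are scaled within a cluster and library, so that cluster size does not enter, and means are over 6 libraries. UMIs come from the 3′ end of transcripts and need no scaling by length. Together the 8 genes held 15263 CPM of microglial RNA, 1.53% of all UMIs. Trem2 reached 2631 ± 214 CPM in pooled microglia (mean ± SD, n = 6), and its median over the 33 nonimmune clusters was 18.6 CPM. Cx3cr1 stood at 1805 ± 127 CPM against a nonimmune median of 9.11 CPM, 198-fold higher in microglia. The smallest such contrast was that of Aif1, 1187 ± 79.0 CPM against 13.9 CPM, or 85.5-fold. The map of levels over the 38 clusters shows a block of 5 immune columns, with macrophages and monocytes bright for some of the genes and dim for others.

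**Figure D1:**
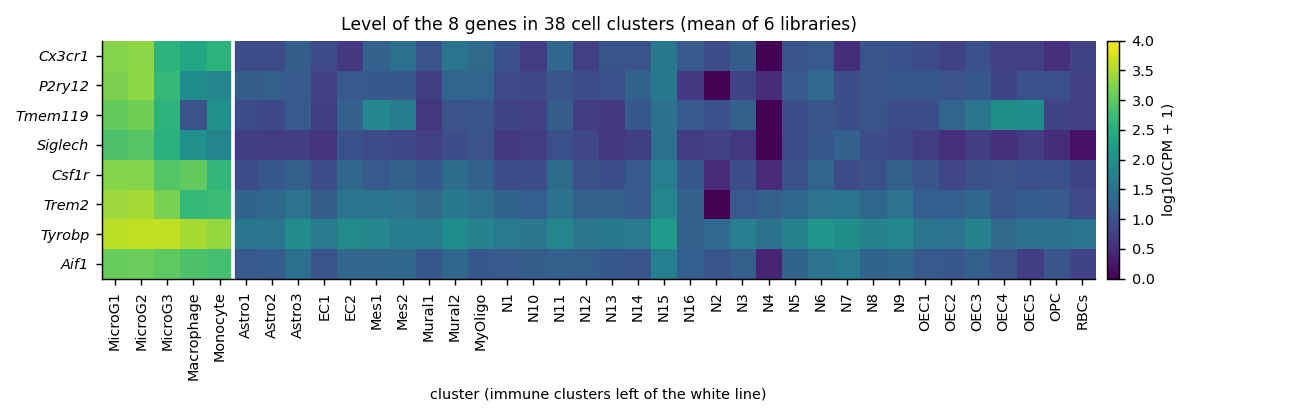
Colour gives the mean level over 6 libraries as log10(CPM + 1) for each of the 8 genes (rows) in each of 38 clusters (columns), with the 5 immune clusters left of the white line. Each of the 8 rows has its brightest column among the microglia clusters, Tmem119 is dark in macrophages (9.38 CPM), and it alone is raised in OEC4 (92.8 CPM) and OEC5 (86.6 CPM).

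Cx3cr1, P2ry12, Tmem119 and Siglech, with Trem2, set microglia apart from the other immune cells, each at least 4.74-fold higher in pooled microglia than in macrophages and in monocytes. This did not hold for every microglia cluster, since Cx3cr1 was at 378 CPM in MicroG3 and 389 CPM in monocytes. Tmem119 was at 1106 and 1105 CPM in microglia of the control libraries, 1159 and 1049 CPM after naris occlusion and 1379 and 1326 CPM after training. In macrophages the same libraries gave 10.6, 14.1, 13.5, 5.19, 6.40 and 6.59 CPM, on 10 UMIs in all. The macrophage level did not stand above the nonimmune median of 9.59 CPM, so Tmem119 was not detectable in macrophages beyond the level found in cells that should lack it. On the scale of log2(CPM + 1), microglia exceeded macrophages by 6.92 ± 0.62 (mean ± SD over 6 libraries), a difference from a level at background.

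P2ry12 was at 1774 and 1752 CPM in control microglia, 2079 and 1539 CPM after naris occlusion and 1481 and 2056 CPM after training. It exceeded the macrophage level by 4.45 ± 0.54 on the log2 scale and the monocyte level by 4.94 ± 1.04, higher in microglia in 6 of 6 libraries each time. Cx3cr1 was nearer to the other cells, at 240 ± 99.0 CPM in macrophages and 389 ± 88.7 CPM in monocytes, 8.12-fold and 4.74-fold below microglia. Cx3cr1 is also used by circulating monocytes, and here it was 1 of 3 members, with Tmem119 and Trem2, whose mean was higher in monocytes than in macrophages. Siglech, at 748 and 793 CPM in control microglia, 908 and 713 CPM after naris occlusion and 743 and 894 CPM after training, was 7.79-fold above macrophages and 12.8-fold above monocytes.

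Tyrobp and Aif1 were instead shared by the myeloid cells. Csf1r lay between, 1.62-fold above macrophages and 3.99-fold above monocytes. Tyrobp reached 4121 ± 236 CPM in microglia, with 2951 ± 367 CPM in the macrophage cluster and 2359 ± 175 CPM in the monocyte cluster. The microglial excess was 1.40-fold and 1.75-fold. With all UMIs counted, 21.5% of monocyte-cluster cells held none of the 8 genes, against 1.75% of macrophages. The monocyte means are thus averages over cells with and without these genes. Aif1 was 1.56-fold above macrophages and 1.83-fold above monocytes. Csf1r separated the other cells from each other, with 1082 ± 68.8 CPM in macrophages and 445 ± 99.3 CPM in monocytes. Pooled microglia were above macrophages in Csf1r by 0.70 ± 0.04 on the log2 scale, the tightest of the 8 differences, and above monocytes by 2.00 ± 0.29. MicroG3 alone, at 861 CPM, was below macrophages.

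Trem2 sided with the microglial group although its partner Tyrobp did not. Its level was 455 ± 79.8 CPM in macrophages and 546 ± 154 CPM in monocytes, 5.83-fold and 4.93-fold below microglia, and the monocyte value rests partly on naris occlusion replicate 1, at 856 CPM against 454 to 523 CPM in the other 5 libraries. Receptor and adaptor therefore did not keep the same ratio between immune cell types. The clusters were drawn from all genes, these 8 included, so differences between clusters are given as descriptions with no test.

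**Figure D2:**
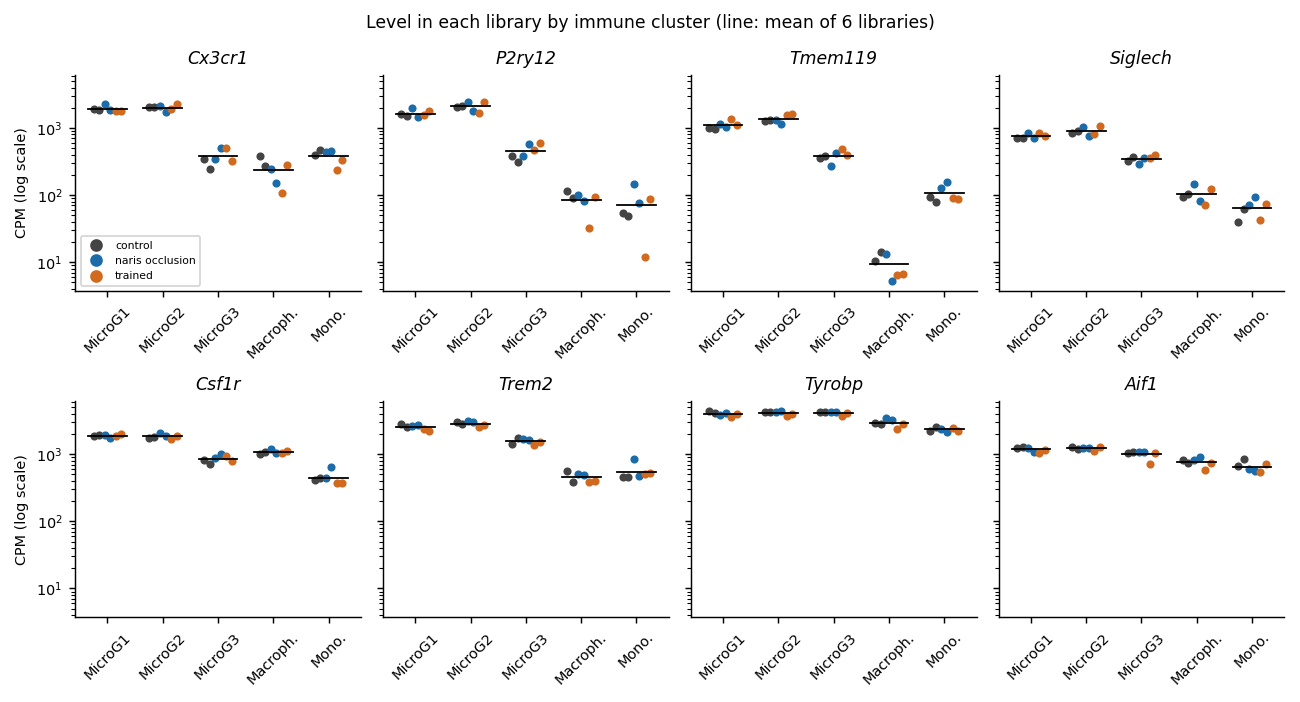
Each point is the level of a gene in 1 library and immune cluster, in CPM on a log axis, coloured by condition, and black lines are means of 6 libraries. Tyrobp and Aif1 run nearly level over the 5 clusters, whereas Tmem119 falls from 1372 CPM in MicroG2 to 9.38 CPM in macrophages.

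Of the 3 microglia clusters, MicroG1 (790 cells) and MicroG2 (2260 cells) held the 8 genes at similar levels. P2ry12 was 1.27-fold and Tmem119 1.24-fold higher in MicroG2, each in 6 of 6 libraries, with log2 differences of 0.35 ± 0.14 and 0.30 ± 0.14. Trem2 was 1.12-fold higher, also in 6 of 6 libraries, and the other 5 members differed in both directions over the libraries. The clusters stood apart in immediate early genes, which rise with tissue dissociation. Fos was at 2564 CPM in MicroG1 and 184 CPM in MicroG2, Jun at 3550 and 729 CPM, and the chemokine Ccl4 at 1760 and 284 CPM. The part of dissociation in the small P2ry12 and Tmem119 differences was not tested.

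MicroG3 (951 cells) held Tyrobp at about the level of MicroG1 and the receptors at lower levels. Cx3cr1 was at 340 and 242 CPM in the control libraries, 343 and 511 CPM after naris occlusion and 512 and 319 CPM after training, against 1764 to 2244 CPM in MicroG1. This is a difference of -2.38 ± 0.45 on the log2 scale, lower in MicroG3 in 6 of 6 libraries. P2ry12 followed at -1.88 ± 0.40, Tmem119 at -1.54 ± 0.28, Csf1r at -1.15 ± 0.21, Siglech at -1.14 ± 0.22 and Trem2 at -0.72 ± 0.18. Tyrobp, with 4176 ± 208 CPM in MicroG3 and 4015 ± 264 CPM in MicroG1, differed by 0.06 ± 0.06, and Aif1 by -0.25 ± 0.18. The order of the members in MicroG3 thus ran from the surface receptors at the low end to the adaptor and the cytoskeletal protein at the high end.

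MicroG3 cells were also shallow, with a median of 748 UMIs against 2336 in MicroG1 and 1847 in MicroG2, and rich in mitochondrial RNA, with a median share of 14.4% against 5.94% and 6.49%. When only cells of 500 to 1000 UMIs were compared, 770 of MicroG3 with 183 of MicroG1 and MicroG2, Cx3cr1 was at 325 ± 105 and 2178 ± 474 CPM, and the log2 difference was -2.77 ± 0.70. P2ry12, Tmem119, Siglech, Csf1r and Trem2 were likewise lower in MicroG3 in 6 of 6 libraries at this depth, by -0.86 for Trem2 to -2.42 for P2ry12. Tyrobp (3944 and 3764 CPM) and Aif1 (941 and 875 CPM) were near level, with Aif1 lower in MicroG3 in 3 of 6 libraries. For the other members the difference was at least as large as that from MicroG1 over all cells. The set of MicroG1 and MicroG2 held as few as 11 cells in a library, and that of MicroG3 at least 69. Median depth still differed, at 711 UMIs in MicroG3 and 812 UMIs in the others. The median mitochondrial share in those cells was 15.3% in MicroG3 and 7.94% in the others. Markers of other cell types were also higher in MicroG3, with a sum over 4 oligodendrocyte markers of 2273 CPM against 932 CPM in MicroG2, and over 5 neuron markers of 940 CPM against 453 CPM. Hemoglobin in MicroG3 reached 15224 CPM in control replicate 1 and 18515 CPM in naris occlusion replicate 2 and was at 55.9 to 121 CPM in the other 4 libraries, and 3 cells with over 10% hemoglobin UMIs lay in those 2 libraries.

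Transcript length moved with the same contrast. Over 2545 genes of at least 50 CPM in MicroG2 with a protein-coding transcript in GENCODE M1 (93.5% of such genes), the log2 ratio of MicroG3 to MicroG2 had a median of 0.13 in the shortest of 4 equal length classes and -1.09 in the longest, and Spearman's rho across genes was -0.50. Tyrobp (564 bases), Aif1 (875 bases) and Trem2 (1088 bases) belong to the shortest class, in which Trem2 had a ratio of -0.87. Cx3cr1 (3729 bases) and P2ry12 (2338 bases), in the third class by length, were at -2.46 and -2.23, where the median of that class was -0.76. At these ratios they lay at the 3.85 and 5.27 percentiles of those 2545 genes from the low end. The genes were kept for their level in MicroG2 alone, so genes high only in MicroG3 could not enter. Their median ratio was -0.53. The part of RNA quality or transcript length in the MicroG3 pattern was not tested.

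**Figure D3:**
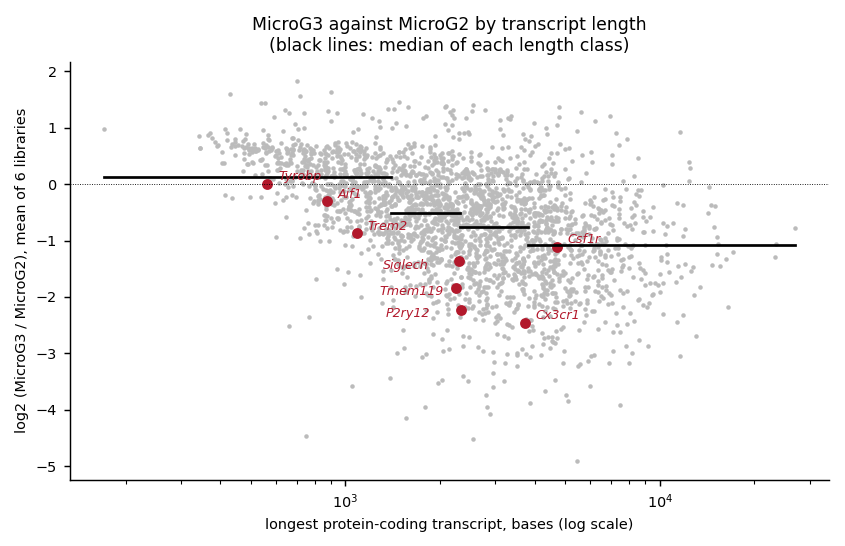
Each grey point is a gene, placed by its longest protein-coding transcript (bases, log axis) and its log2 ratio of MicroG3 to MicroG2 (mean of 6 libraries), with the 8 genes in red and the median of each length class as a black line. Cx3cr1, P2ry12, Tmem119 and Trem2 lie below the line of their class by over 1 unit, while Csf1r sits on it.

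Cell by cell, most microglia held several of the 8 genes. To compare shares of cells with a UMI at equal depth, every cell was thinned at random to 500 UMIs, which left out no cell. Tyrobp was then seen in 84.7% of MicroG2, 82.4% of MicroG3, 72.0% of macrophages and 56.8% of monocytes, and in 2.503% of the 46230 nonimmune cells. Cx3cr1 was seen in 62.1% of MicroG2, 13.99% of MicroG3, 8.22% of macrophages and 14.3% of monocytes, with 0.426% in nonimmune cells. Without thinning these shares were 98.6%, 90.01%, 91.8%, 73.7% and 5.91% for Tyrobp and 93.7%, 20.0%, 26.0%, 35.3% and 1.24% for Cx3cr1, at median depths of 1847, 748, 1629.5, 1844 and 1296 UMIs. The shares in nonimmune cells were taken as the background, and all 5 immune clusters were above it for these 2 genes.

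Of the 8 genes, a thinned cell held a UMI of 4.56 on average in MicroG1, 4.68 in MicroG2, 2.66 in MicroG3, 1.79 in macrophages, 1.39 in monocytes and 0.07 in nonimmune cells. At full depth, 57.3% of MicroG1 cells and 50.9% of MicroG2 cells held all 8, against 0.946% of MicroG3 cells, 1.12% of monocytes and 0 of 572 macrophages, which allows a share of up to 0.524%. These shares go with depth, and in cells thinned to 500 UMIs 0.633% of MicroG1, 1.24% of MicroG2 and 0.105% of MicroG3 held all 8. A UMI of at least 4 members was found in 99.9% of MicroG1 cells, 46.0% of MicroG3 cells, 46.5% of macrophages and 102 of 46230 nonimmune cells (0.221%). At equal depth the share was 78.7% in MicroG1, 25.2% in MicroG3, 5.24% in macrophages and 0.024% in nonimmune cells. Those 102 cells were deep, with a median of 2965 UMIs against 1296 over all nonimmune cells, and they were kept in the clusters.

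Outside the immune clusters 7 of the 8 genes stood highest in one and the same cluster, N15, a shallow neuron cluster of 861 cells (median 813 UMIs). Tyrobp was at 154 CPM there and Cx3cr1 at 38.4 CPM, 3.74% and 2.13% of their microglial levels. The 13 cells of N15 with at least 4 members carried much of this. Without them, a choice made on the members themselves that lowers their level by construction, Cx3cr1 was at 7.90 CPM and Tyrobp at 75.5 CPM in N15. With cells of at least 4 members left out of every nonimmune cluster, N15 was the highest of these clusters for Trem2 alone.

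Tmem119 was the exception outside the immune cells. It was raised in a subset of olfactory ensheathing cells (OEC), the glia that wrap olfactory axons, and in mesenchymal cells (Mes). In OEC4 it was at 88.6 and 93.5 CPM in the control libraries, 67.1 and 102 CPM after naris occlusion and 102 and 103 CPM after training, whereas OEC1 gave 2.61 to 12.3 CPM. OEC4 exceeded OEC1 in 6 of 6 libraries, and both OEC4 and OEC5 (86.6 ± 22.0 CPM) exceeded every nonimmune cluster other than OEC and Mes clusters in 6 of 6 libraries. Mes1 stood at 73.2 ± 16.7 CPM and Mes2 at 49.0 ± 26.2 CPM, with Mes2 libraries spread from 16.5 to 85.1 CPM. The OEC4 level was 7.81% of that in microglia.

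The other 7 members were not raised with Tmem119 in OEC4, where each was seen in a smaller share of cells than over all nonimmune cells. At equal depth a Tmem119 UMI was found in 4.63% of OEC4 cells and 4.87% of OEC5 cells, against 0.533% in OEC1 and 0.919% in all nonimmune cells. Aif1 was found in 0.437% of OEC4 cells, Cx3cr1 in 0.233% and Trem2 in 0.349%, below the 0.807%, 0.426% and 1.04% over all nonimmune cells. Cells with 4 or more members numbered, at full depth, 1 of 3436 in OEC4, 0 of 883 in OEC5 and 3 of 653 in Mes1. In Mes2 they numbered 4 of 230 (1.74%), the largest share of the 33 nonimmune clusters. At full depth 16.6% of OEC4 cells, with a median of 2116.5 UMIs, had a Tmem119 UMI.

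**Figure D4:**
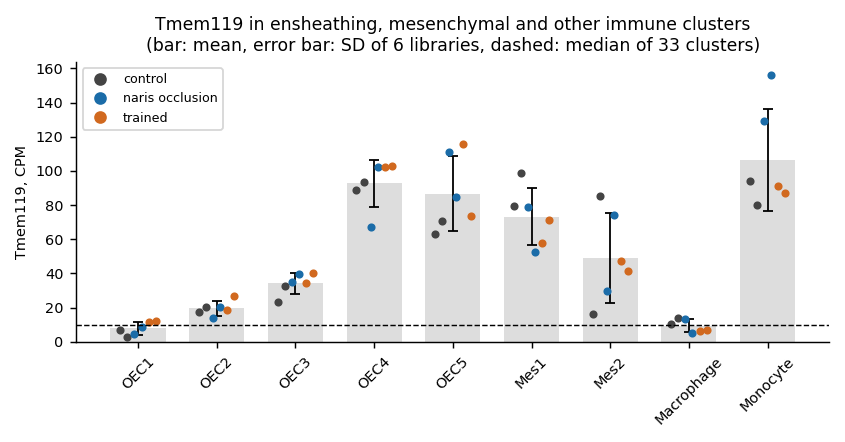
Bars are the mean Tmem119 level in CPM, error bars the SD over 6 libraries, points the libraries coloured by condition, and the dashed line the median of the 33 nonimmune clusters (9.59 CPM). OEC4, OEC5 and Mes1 lie well above the line in every library, while macrophages and OEC1 scatter around it.

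Ligands of these receptors had their highest levels outside microglia. Il34 was highest in Mural2 (354 CPM) and Mural1 (182 CPM), the contractile cells of vessels, and was at 3.39 ± 2.37 CPM in microglia. Csf1, the other ligand of Csf1r, was low everywhere, at most 59.4 CPM in myelinating oligodendrocytes (MyOligo) and 42.5 CPM in Astro1, and within microglia it was at 27.5 ± 10.5 CPM in MicroG1 and 8.34 ± 3.96 CPM in MicroG2. Cx3cl1 was a neuronal transcript, at 668 CPM in N7 and 547 CPM in N8 against 21.0 ± 6.82 CPM in microglia. Apoe, which Trem2 binds, reached 51643 ± 3638 CPM in macrophages, against 36396 ± 5892 CPM in monocytes and 9934 ± 1358 CPM in microglia. OEC1 reached 47588 CPM, and the lowest nonimmune cluster still had 1686 CPM, a level at which free RNA cannot be told apart from expression.

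Partners inside the cell followed the members in part. The transcription factors Spi1 (383 ± 29.2 CPM) and Irf8 (482 ± 20.3 CPM) were at most at 17.3 and 16.1 CPM in any nonimmune cluster. In MicroG3, Spi1 was at 246 ± 31.6 CPM and Irf8 at 182 ± 33.3 CPM. Syk, the kinase recruited by Tyrobp, was at 45.3 ± 7.49 CPM in microglia and at 46.0 CPM in OEC4. Hcst, an adaptor related to Tyrobp, was at 65.0 ± 8.25 CPM in microglia and 294 ± 84.3 CPM in monocytes. Among the 13 other microglia genes, 12 peaked in MicroG1 or MicroG2, and the exception was Ptprc (CD45), at 313 CPM in monocytes and 155 CPM in MicroG2.

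Likeness of pattern was measured as Pearson's r of log2(CPM + 1) over the 38 cluster means, among the genes with at least 10 CPM in some cluster. The clusters share libraries and depth, so r is given as a description. Tyrobp was closest to Fcer1g, another signalling adaptor (r = 0.993), and to the complement genes C1qa (r = 0.988) and C1qb (r = 0.988). Csf1r was closest to C1qc (r = 0.988), Pld4 (r = 0.983) and C1qa (r = 0.981), and Aif1 to C1qc (r = 0.981), C1qa (r = 0.977) and Ly86 (r = 0.977). Trem2 was closest to Gpr34 (r = 0.973), Laptm5 (r = 0.972) and Ctss (r = 0.972), while P2ry12 had Gpr34 (r = 0.956), Selplg (r = 0.952) and Trem2 itself (r = 0.951). Siglech was closest to the member Aif1 (r = 0.960), then C1qc (r = 0.959) and Ly86 (r = 0.957), and Cx3cr1 to Cd37 (r = 0.956), Pld4 (r = 0.955) and Itgam (r = 0.954). Tmem119 had the least similar neighbours, Gal3st4 (r = 0.870), Lag3 (r = 0.862) and Olfml3 (r = 0.861). Olfml3 was also found in Mes1, at 160 CPM.

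Whether odour deprivation or training moved the 8 genes was asked in microglia, macrophages and monocytes apart, on UMIs summed per library (edgeR quasi-likelihood test, Benjamini-Hochberg adjusted over all genes tested). In microglia none of the 8 passed an adjusted p of 0.05 in any of the 3 comparisons, and 0% of the 9254 genes tested did so in each of them. At an unadjusted p under 0.05 there were 391 genes for naris occlusion against control, 443 for training against control and 640 for training against naris occlusion, and DESeq2 called 0, 0 and 1. With 2 libraries per condition, an exact permutation test of a single value cannot give less than 0.333. The libraries are separate pools of mice, so the spread includes animals. It also includes sex, which goes with the replicate number, and with that number as a block 0 members were called, and 0 to 18 genes, over the 9 comparisons in the 3 cell types.

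In microglia no member was called. Each interval given here is for a single member and comparison and is not adjusted for their number. Over all 8 members and 3 comparisons, the 95% intervals of the log2 fold change lay between -0.50 and 0.51. Without adjustment, 0 lay outside the intervals of Tmem119 for training against control and against naris occlusion. The same held for Trem2 for training against naris occlusion. For naris occlusion against control the members with the largest differences were Csf1r, at 1679 and 1727 CPM in control against 1932 and 1745 CPM (log2 fold change 0.12 ± 0.11 SE, adjusted p = 0.997), and Siglech (0.08 ± 0.14, adjusted p = 0.997). The Siglech value came from naris occlusion replicate 1 and turned to -0.07 without it. The median over the 8 members was 0.03 and that over all genes was 0.00.

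Training against control gave Tmem119 and Trem2 as the members that differed most, in opposite directions. MicroG3, low in both genes, was 29.1% and 23.9% of microglia in the trained libraries, against 21.3% to 22.8% in the others. Within MicroG2 alone, Tmem119 was at 1275 and 1301 CPM in control and 1584 and 1600 CPM after training. Within MicroG3 alone it was at 354 and 380 CPM against 484 and 399 CPM. Trem2 was at 2979 and 2841 CPM against 2510 and 2690 CPM in MicroG2. In MicroG3 its libraries overlapped, at 1403 and 1760 CPM against 1381 and 1516 CPM. The part of the make-up in the differences was not tested. In pooled microglia both trained libraries (1379 and 1326 CPM) lay above both control libraries (1106 and 1105 CPM) in Tmem119, a log2 fold change of 0.27 ± 0.12 (SE, unadjusted p = 0.0365, adjusted p = 0.957). Trem2 was at 2768 and 2627 CPM in control and 2317 and 2431 CPM after training, a log2 fold change of -0.21 ± 0.10 (adjusted p = 0.957). The groups did not overlap in either gene, nor in Tyrobp (4335 and 4209 CPM against 3727 and 3973 CPM), but 20.1% of all genes tested also lay without overlap above control and 14.6% below. Against naris occlusion the same 2 members led, Trem2 at -0.28 ± 0.10 (adjusted p = 0.677) and Tmem119 at 0.26 ± 0.12 (adjusted p = 0.709). These comparisons share libraries and are not separate evidence, and none of the differences passed the test.

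Macrophages, with 70 to 110 cells per library, left 7 members to test, since Tmem119 was too low. None of the 7 was called. Of 2738 genes, 0.073% were called for naris occlusion against control (Calb2 and S100a5) and 0% for training against control. Training against naris occlusion gave 0.11% (those 2 and Lyve1). These genes were named after their values were seen. The study used Calb2 as a marker of a granule cell cluster. In macrophages the neuron markers summed to 792 CPM and the ensheathing cell markers to 1390 CPM. The part of RNA from other cells in these calls was not tested. For training against control, 134 genes had an unadjusted p under 0.05, and DESeq2 called no gene in any of the 3. Cx3cr1 was at 386 and 274 CPM in control macrophages, 242 and 150 CPM after naris occlusion and 109 and 277 CPM after training. Its log2 fold changes were -0.75 ± 0.32 (adjusted p = 0.938) and -0.80 ± 0.33 (adjusted p = 0.875), and the trained libraries overlap those of control. Siglech was second for naris occlusion (0.24 ± 0.37, adjusted p = 0.988), turning to -0.24 without replicate 1 of that condition, and P2ry12 second for training (-0.77 ± 0.45, adjusted p = 0.994). P2ry12 was at 116 and 91.5 CPM in control macrophages against 32.0 and 92.2 CPM after training, so that one trained library lay at the level of control. Without trained replicate 1, the training differences were -0.18 for P2ry12 and -0.26 for Cx3cr1.

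Whether a member was called in macrophages depended on a single library. Without trained replicate 2, so with trained replicate 1 alone and assumed to vary like the other libraries, Cx3cr1 was lower than in control (-1.66, adjusted p = 0.0109) and Tyrobp lower than after naris occlusion (-0.53, adjusted p = 0.0281), where with all libraries Tyrobp was at -0.38 (adjusted p = 0.510). Trained replicate 1 is the shallow library with the highest mitochondrial share, and its macrophages were the lowest of the 6 in Cx3cr1, P2ry12, Siglech, Tyrobp and Aif1. Its sum over 4 oligodendrocyte markers in macrophages was 2157 CPM against 745 to 1450 CPM in the other libraries, its sum over the 4 microglia markers was 1094 CPM against 1462 to 2008 CPM, and the part of these in the result was not tested. For training against naris occlusion, the members with the largest differences were P2ry12 (-0.57 ± 0.44, adjusted p = 0.822) and Aif1 (-0.43 ± 0.20, adjusted p = 0.630), and P2ry12 turned to 0.02 without trained replicate 1.

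Monocytes, with 81 to 137 cells per library, gave no call in any comparison among 8 members or 3282 genes (0% in each, with 112, 136 and 154 genes at an unadjusted p under 0.05 and 0 called by DESeq2). The low members had wide intervals. P2ry12 was at 53.8 and 48.8 CPM in control, 147 and 75.8 CPM after naris occlusion and 12.1 and 87.2 CPM after training. Its log2 fold change for naris occlusion against control was 1.15 ± 0.54 (adjusted p = 1.00), and the 95% interval ran from -0.04 to 2.33. Without naris occlusion replicate 1 it was 0.60. Tmem119 was at 94.1 and 80.2 CPM in control against 129 and 156 CPM (0.74 ± 0.27, adjusted p = 1.00), one of 4 members whose naris occlusion libraries both lay above control, as did 14.2% of all genes. The sum over the 4 microglia markers in monocytes moved with it, at 642 and 736 CPM in control, 900.3 and 954 CPM after naris occlusion and 467 and 670 CPM after training, and its part in these differences was not tested. Training against control was led by Cx3cr1 (-0.54 ± 0.25, adjusted p = 0.991) and Siglech (0.25 ± 0.42, adjusted p = 0.996). That of Siglech turned to -0.03 without control replicate 1 and to -0.19 without trained replicate 2. Training against naris occlusion was led by P2ry12 (-1.06 ± 0.57, adjusted p = 0.986, and -0.38 without trained replicate 1) and Tmem119 (-0.68 ± 0.28, adjusted p = 0.974).

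**Figure D5:**
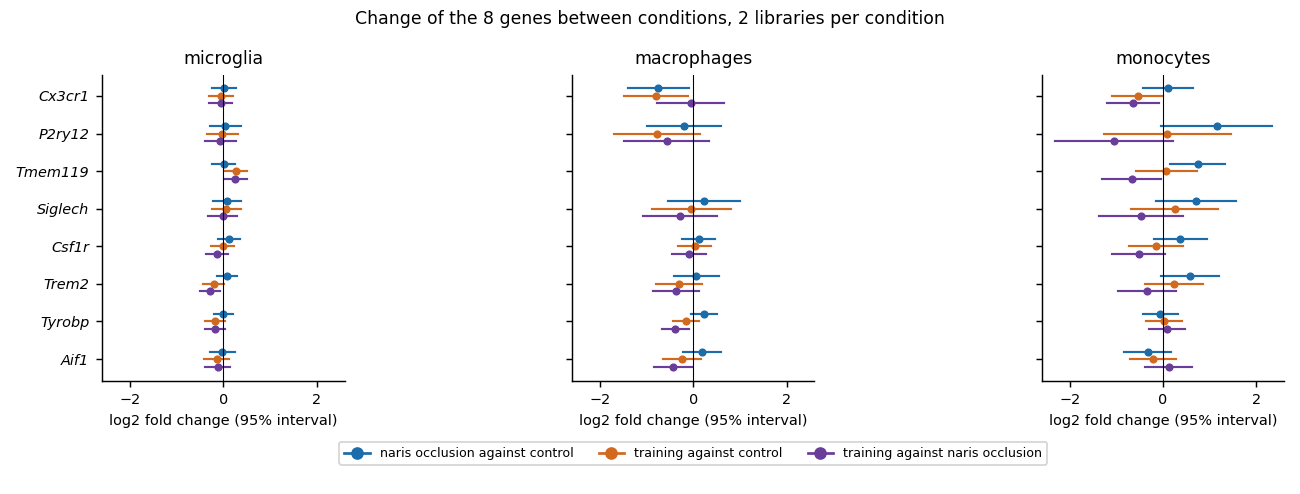
Points are log2 fold changes of the 8 genes with their 95% intervals, in microglia, macrophages and monocytes, for the 3 comparisons in 3 colours. Intervals in microglia all lie between -0.50 and 0.51, and those of the low genes in monocytes reach from -2.32 to 2.33.

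Lists of related genes were read in the same fits. In microglia, 13 other microglia genes, 15 genes of myeloid receptor signalling, 13 dissociation response genes, 13 disease-associated microglia genes, 5 border macrophage genes, 4 ligands and 6 monocyte and dendritic cell genes were tested, and none was called in any of the 3 comparisons. For training against control, their median log2 fold changes in that order were -0.0042, 0.09, 0.10, -0.26, 0.24, 0.05 and 0.94, beside 0.00 over all genes. Of the 6 monocyte and dendritic cell genes, which present antigen or mark blood-derived cells, 5 had an unadjusted p under 0.05 in that comparison, against 4.79% of all genes tested. Of the 13 disease-associated genes, 4 did so. For training against naris occlusion, which shares the trained libraries, these counts were 4 of 6 and 7 of 13, against 6.92% of all genes, and for naris occlusion against control 0 of 6 and 1 of 13, against 4.23%. In the same order of comparisons, the counts were 2, 3 and 0 for the 13 dissociation response genes. Each other list had 0 or 1 such gene. The sum over 5 monocyte markers in microglia was at 1057 and 1077 CPM in control and 979.9 and 1203 CPM after naris occlusion. After training it was at 747 and 1133 CPM, so the trained libraries did not both lie above control. Lyz2 made up most of this sum, at 897 ± 165 CPM in microglia (mean ± SD over 6 libraries). Cd74 was at 118 ± 76.9 CPM and H2-Aa at 12.5 ± 12.6 CPM, so the sum says little about those genes. In macrophages the border macrophage gene Lyve1, a hyaluronan receptor, was the list gene that was called, at 1.78 ± 0.34 (SE) on the log2 scale for training against naris occlusion (adjusted p = 0.0215), and no list gene was called in monocytes.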

How the data were processed

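The authors dissociated olfactory bulbs, made 10X Genomics Chromium libraries and, per the labels, used Cell Ranger 2.0.0 with mm10 and Seurat 2.2.1. The deposited table holds raw counts of UMIs for 18560 genes in 52549 barcodes (each with at least 201 genes detected), and a deposited annotation gives 51426 of them a cluster, a library and a mitochondrial fraction. The trained libraries' cell name prefixes are reversed against the annotation, whose library names were used.

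Here UMIs were summed per cluster and library and divided by the sum's total (CPM). Log2 ratios between clusters used a pseudocount of 1 CPM. Conditions were compared with edgeR 4.0.16 (quasi-likelihood test, TMM, filterByExpr, one fit over 6 libraries, Benjamini-Hochberg), with DESeq2 1.42.0 as an alternative, and tested on simulated data first. In each comparison the text names members with an adjusted p under 0.05, otherwise the 2 with the largest log2 fold change, and for likeness the 3 nearest genes. Per their methods the authors removed doublets, no doublet caller was run here, and 1123 barcodes without a cluster were left out of every comparison. Between any 2 libraries 65 to 144 barcodes were shared (at most 1.57% of the smaller). The members and lists were chosen with earlier results of these data known. Clec7a was not analysed here, and a microglia marker was left out of the lists and is not reported here. Limits from a count of 0 cover counting error only, while the 95% intervals of log2 fold changes come from the spread between libraries.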

Additional observations from a re-analysis of the deposited data

Results flagged for a closer look

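The 1123 barcodes without a cluster name, which no comparison above uses, held the 8 genes at 3117 CPM in sum, a signal in data outside the main measurement. Tyrobp was at 781 CPM there, Trem2 at 503 CPM and Cx3cr1 at 414 CPM. A UMI of at least 4 members was found in 312 of them (27.8%), at a median of 3161 UMIs, against 0.221% of named nonimmune cells. Summed over those 312, the microglia markers stood at 2397 CPM (5025 CPM in the microglia clusters), the neuron markers at 3336 CPM (494 CPM) and the ensheathing cell markers at 4040 CPM (533 CPM), and the part of mixed barcodes was not tested.

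3 of the members moved in opposite directions in a pair of cell types, with no overlap between the libraries of the conditions in either, and the differences were not tested. Between training and naris occlusion, Tmem119 differed by 0.26 (log2 fold change) in microglia and by -0.68 in monocytes. Between training and control, Trem2 differed by -0.21 in microglia and by 0.23 in monocytes. Between naris occlusion and control, Aif1 differed by 0.19 in macrophages and by -0.33 in monocytes. None of these values passed an adjusted p of 0.05 in edgeR. With 2 libraries a group, splits in a single cell type are common, at 14.2% to 20.3% of all genes in a given direction. The share of all genes split in opposite directions in a pair of cell types was not counted. The 3 cases are therefore not read as a result about the members.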

How the results depend on the processing

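The count of members called stayed at 0 in all 9 comparisons under size factors by RLE, no filter, DESeq2, the 2 groups alone and cells of at least 1000 UMIs, and in the 3 comparisons in microglia with single microglia clusters, and leaving out a library gave 0 to 1 in macrophages, for training against control and against naris occlusion (both without trained replicate 2). With the replicate number as a block, 0 members were called and 0 to 18 genes in all. Same-numbered libraries deviated together with correlations of -0.02 to 0.22 in microglia, 0.08 to 0.10 in macrophages and 0.19 to 0.39 in monocytes, and the number goes with Xist. All 3 correlations were over 0.1 in monocytes alone, where the block called 0 to 7 genes and changed no call of a member. Calls over all genes, 0 to 3 as reported, were 1 to 42 without the filter and 0 to 73 with a library left out.

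The direction of some single-member log2 fold changes, none of them called, depended on a library or cluster. Csf1r for naris occlusion in microglia was at -0.026 in MicroG1 alone, and Siglech at -0.12 in MicroG3 alone and, with a library left out, from -0.067 (naris occlusion replicate 1) to 0.20. In macrophages Siglech ran from -0.24 (without that library) to 0.55, and P2ry12 for training against naris occlusion from -1.54 to 0.019 (without trained replicate 1). In monocytes Siglech for training against control was at -0.032 without control replicate 1 and ran from -0.19 (without trained replicate 2) to 0.58.

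The median log2 difference of MicroG3 from MicroG1 over the members was -1.14, -0.997 with mitochondrial and hemoglobin genes left out of the total, and -1.41 in cells of 500 to 1000 UMIs against MicroG1 and MicroG2 together (added after seeing the data). That of microglia from the highest nonimmune cluster was 5.44, and 6.41 without nonimmune cells holding 4 or more members (added likewise). The median share of microglia with a UMI rose from 50.2% to 76.8% without thinning and to 79.2% at 1000 UMIs, and the members per cell from 4.199 to 6.39 and 6.15, where 1000 UMIs left out 953 of 4001 microglia, 770 of them MicroG3 cells. Of the 24 nearest genes, 6 stayed with Spearman's correlation, 14 with a pseudocount of 10 CPM and 14 with the immune clusters as 1. With 2 libraries a condition, small changes could not be called, and Tmem119 in macrophages rests on 10 UMIs.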
